A study of Mus musculus with 8 samples.

Results

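The genes described here are C1qa, C1qb, C1qc, Mrc1, Cd163, Fcna, Cd5l, Igf1, Gfra2 and Slc40a1, 10 genes that tissue macrophages are known to express. They are 10 of the 18193 genes measured, read by 20 of the 45101 probe sets on the array. They were picked by name and, for the most part, chosen by the NOD.Idd3 minus NOD difference that these same arrays had shown, so that difference is given as a description without a test. CD11b is an integrin subunit found on macrophages, monocytes, neutrophils and other cells. CD11b+ cells from NOD.Idd3 mice, a congenic strain labelled for the diabetes locus Idd3 on the NOD background, were set against those of NOD mice, a strain prone to autoimmune diabetes. The 4 groups, of 2 arrays each, were NOD.Idd3 cells with peptidoglycan (PGN, the polymer of bacterial cell walls, dosed at 5 µg/ml), NOD cells with PGN, unstimulated NOD.Idd3 cells and unstimulated NOD cells. All were kept for 4 h at 37 °C, the unstimulated ones in medium alone. The labels call the 2 arrays of a group biological replicates. The sources used here do not give the tissue, the age and sex of the mice, how many mice stand behind a replicate, or the extent of the congenic segment.

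Macrophages that settle in a tissue carry a set of genes for clearing dying cells, worn red cells and microbes without inflammation. C1qa, C1qb and C1qc encode the A, B and C chains of C1q, the recognition molecule of the classical complement pathway, which is made by macrophages and dendritic cells rather than mainly by the liver. Fcna encodes ficolin A, a soluble lectin that starts the lectin pathway in mice. Mrc1 encodes the mannose receptor, Cd163 the scavenger receptor for haemoglobin bound to haptoglobin, and Cd5l a secreted scavenger-type protein of tissue macrophages. Slc40a1 encodes ferroportin, through which macrophages export iron, Igf1 encodes a growth factor, and Gfra2 encodes a receptor subunit for neurturin, a member of the GDNF family.

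The 3 C1q genes are neighbours on chromosome 4, in the order C1qb, C1qc, C1qa with no other protein-coding gene between them in the RefSeq annotation. Cd5l lies on chromosome 3, the chromosome of Idd3. Mrc1 and Fcna lie on chromosome 2, Slc40a1 on chromosome 1, Cd163 on chromosome 6, Igf1 on chromosome 10 and Gfra2 on chromosome 14. RefSeq promoter windows (build GRCm38.p6, 250 bases before to 50 after a gene's start) were at hand for 7 of the 10 genes. The 4 below, of a pair of C1q chains, ficolin A and the mannose receptor, are shown as examples. All 7 genes had every NOD.Idd3 array below every NOD array. The sequences are from the C57BL/6J reference, not from the mice studied. Each run gives the 250 bases before the start, 5′ to 3′ on the gene's own strand, with matches to GAGGAA, the core of sites for the myeloid factor PU.1, and to TGCTGA, the core of MAF sites, in capitals on either strand (TTCCTC and TCAGCA on the other). C1qb is at chr4:136886201-136886450 and C1qc at chr4:136892915-136893164, both on the minus strand. Fcna is at chr2:25627975-25628224 on the minus strand and Mrc1 at chr2:14229164-14229413 on the plus strand.
C1qb: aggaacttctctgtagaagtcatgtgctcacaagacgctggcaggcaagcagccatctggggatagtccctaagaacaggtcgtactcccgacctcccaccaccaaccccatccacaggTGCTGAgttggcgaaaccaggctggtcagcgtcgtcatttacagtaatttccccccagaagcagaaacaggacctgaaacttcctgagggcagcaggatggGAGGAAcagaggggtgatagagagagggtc
C1qc: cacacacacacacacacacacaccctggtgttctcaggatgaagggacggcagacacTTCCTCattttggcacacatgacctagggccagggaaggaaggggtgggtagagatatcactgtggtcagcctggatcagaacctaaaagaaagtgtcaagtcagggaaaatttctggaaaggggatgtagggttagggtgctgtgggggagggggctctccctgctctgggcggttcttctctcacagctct
Fcna: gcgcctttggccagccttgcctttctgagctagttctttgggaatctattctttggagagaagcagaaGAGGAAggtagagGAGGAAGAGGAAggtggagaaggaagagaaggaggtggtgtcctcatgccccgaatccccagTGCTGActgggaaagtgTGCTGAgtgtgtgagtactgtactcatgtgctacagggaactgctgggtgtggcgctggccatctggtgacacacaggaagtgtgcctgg
Mrc1: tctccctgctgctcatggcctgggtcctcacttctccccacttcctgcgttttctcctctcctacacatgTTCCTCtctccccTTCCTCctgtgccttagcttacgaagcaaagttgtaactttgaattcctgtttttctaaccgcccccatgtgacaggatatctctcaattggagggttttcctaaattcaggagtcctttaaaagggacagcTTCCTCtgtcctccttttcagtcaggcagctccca

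GAGGAA began 30 bases before the start of C1qb, 193 before that of C1qc, 182, 169 and 163 before that of Fcna and 180, 167 and 35 before that of Mrc1. Fcna held 1 further match after its start, outside the bases shown. TGCTGA began 131 bases before the start of C1qb, and Fcna held 2 such matches. In all, GAGGAA was found in the windows of 6 of the 7 genes (C1qb, C1qc, Cd5l, Fcna, Igf1 and Mrc1) and in 28.3% of all 32851 windows. TGCTGA was found in 3 of 7 windows and in 19.5% of all windows, and the AP-1 motif TGACTCA in 0 of 7 and in 5.2%. The window of Cd163, not shown, held no match to any of these motifs. No 2 matches to different motifs overlapped in the windows shown. These letters are a description and show no binding.

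The arrays were compared before any gene was read. Arrays of 1 group correlated across genes at 0.985 to 0.991. On NOD.Idd3 arrays the 3′ minus 5′ difference of the Gapdh control probe sets, a sign of RNA or labelling quality, was 0.72 to 0.80 (log2), against 0.88 to 1.16 on NOD arrays, and for Actb it was 0.22 to 0.46 against 0.43 to 0.58. The label CD11b+ was checked on Itgam, the CD11b gene itself, which lay between 7.87 and 9.02 on the log2 scale over the 8 arrays, above the array medians of 6.38 to 6.65. The leukocyte gene Ptprc and the myeloid gene Lyz2 reached at least 12.23 and 13.72 on every array. The gene Ltf of neutrophils, which also carry CD11b, lay between 12.81 and 14.18. T cell genes were uneven: Cd3d lay between 10.18 and 12.44, but Cd3g between 5.96 and 7.80 and Cd4 between 6.63 and 7.86.

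The C1q genes stood lower in NOD.Idd3 than in NOD cells, by 2.58-fold to 2.77-fold averaged over the conditions. C1qa had log2 values of 7.30 and 7.23 in NOD.Idd3 cells with PGN, against 8.26 and 9.19 in NOD cells with PGN. Unstimulated, it had 7.37 and 7.41 in NOD.Idd3 cells, against 8.46 and 9.10 in NOD cells. All 4 NOD.Idd3 arrays lay within 0.2 log2 units of each other, whereas NOD replicate 2 stood above NOD replicate 1 in both conditions. C1qb had 9.31 and 9.07 in NOD.Idd3 cells with PGN, against 10.67 and 10.93 in NOD cells with PGN, and 9.48 and 9.60 in unstimulated NOD.Idd3 cells, against 10.54 and 10.79 in unstimulated NOD cells. C1qc had 7.76 and 7.90 in NOD.Idd3 cells with PGN, against 8.90 and 9.61 in NOD cells with PGN, and 7.59 and 8.0 in unstimulated NOD.Idd3 cells, against 8.97 and 9.65 in unstimulated NOD cells. The 2 strains did not overlap for any of the 3 chains, and the gap between the lowest NOD and the highest NOD.Idd3 array was 0.85 for C1qa, 0.94 for C1qb and 0.90 for C1qc. The NOD.Idd3 minus NOD differences, averaged over conditions, were -1.42 ± 0.23 for C1qa, -1.37 ± 0.15 for C1qb and -1.47 ± 0.22 for C1qc (log2, limma SE, 4 arrays per strain). All 3 probe sets of C1qb were lower in NOD.Idd3, with averaged differences of -1.37, -1.22 and -1.20, without overlap of the strains.

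**Figure D1:**
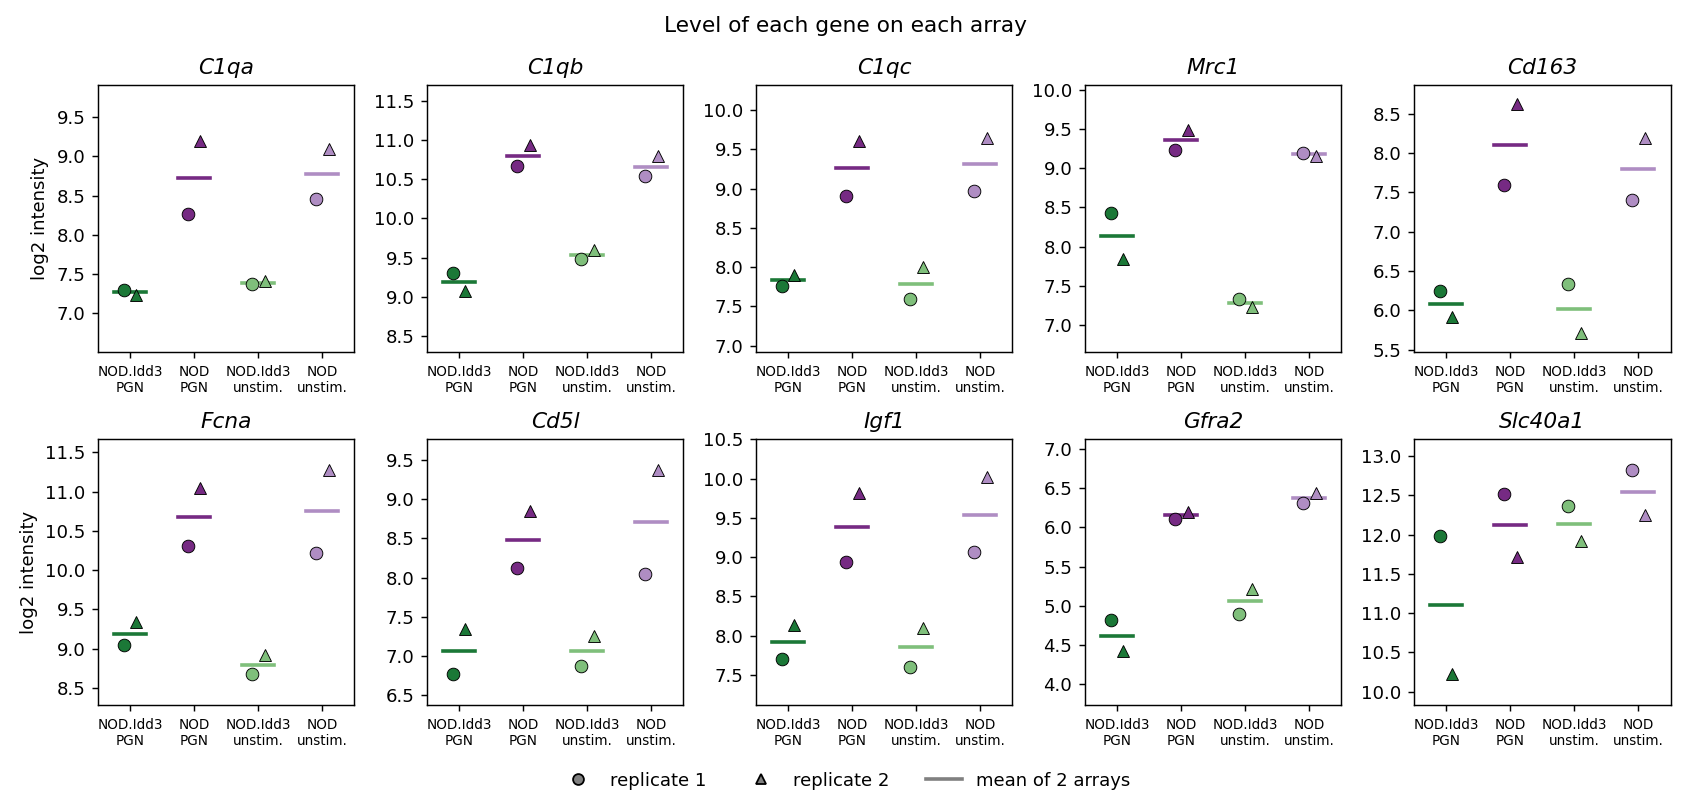
The log2 intensity (y axis, each panel spanning the same number of units) of each gene on each of the 8 arrays, by group (x axis), with circles for replicate 1, triangles for replicate 2 and a bar at the mean of 2 arrays. All NOD.Idd3 points lie below all NOD points in every panel except Slc40a1.

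Ficolin A, the other soluble recognition molecule in the set, showed the second-lowest averaged difference of any gene measured. That rank is given for scale, since the genes were chosen with this contrast in view. Fcna had 9.04 and 9.34 in NOD.Idd3 cells with PGN, against 10.31 and 11.05 in NOD cells with PGN. In unstimulated cells it had 8.67 and 8.92 in NOD.Idd3, against 10.22 and 11.28 in NOD. Its strain difference was -1.49 ± 0.37 with PGN and -1.96 ± 0.37 unstimulated (SE, 2 arrays per group), and the NOD arrays of 1 condition differed from each other by 0.74 and 1.06.

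Among the receptors, Cd163 had the lowest averaged difference of all 18193 genes, -1.91 ± 0.28, a rank likewise given for scale. It had 6.24 and 5.91 in NOD.Idd3 cells with PGN, against 7.59 and 8.63 in NOD cells with PGN, and 6.33 and 5.71 in unstimulated NOD.Idd3 cells, against 7.40 and 8.19 in unstimulated NOD cells. The NOD.Idd3 values lay below the array medians and the NOD values above them. Mrc1 had 8.43 and 7.84 in NOD.Idd3 cells with PGN, against 9.23 and 9.49 in NOD cells with PGN. In unstimulated cells it had 7.33 and 7.23 in NOD.Idd3, against 9.19 and 9.16 in NOD. Its strain difference was -1.23 ± 0.24 with PGN and -1.90 ± 0.24 unstimulated, and the unstimulated arrays of each strain were within 0.10 of each other. Gfra2 was dim: it had 4.82 and 4.42 in NOD.Idd3 cells with PGN, against 6.11 and 6.19 in NOD cells with PGN, and 4.90 and 5.21 in unstimulated NOD.Idd3 cells, against 6.31 and 6.44 in unstimulated NOD cells. The 25th percentiles of the arrays were 4.28 to 4.57, so the NOD.Idd3 values were near background. Its other 4 probe sets differed by -1.10, -0.37, -0.27 and -0.13, and 3 of them overlapped between the strains. The probe set used for Gfra2, the brightest of 5, is of the _x_at type, whose probes can match other transcripts, and without that type the difference was -0.37.

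The secreted products followed the receptors in direction. Cd5l had 6.77 and 7.34 in NOD.Idd3 cells with PGN, against 8.12 and 8.85 in NOD cells with PGN, and 6.87 and 7.26 in unstimulated NOD.Idd3 cells, against 8.04 and 9.37 in unstimulated NOD cells. The 2 unstimulated NOD arrays were 1.33 apart, close to the averaged strain difference of -1.53 ± 0.31. Igf1 had 7.70 and 8.14 in NOD.Idd3 cells with PGN, against 8.94 and 9.82 in NOD cells with PGN, and 7.60 and 8.10 in unstimulated NOD.Idd3 cells, against 9.06 and 10.02 in unstimulated NOD cells. Its averaged difference was -1.57 ± 0.28, and its 3 dimmer probe sets differed by -0.99 to -0.87, 2 of them with overlap between the strains.

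Ferroportin was the exception. Slc40a1 had 11.98 and 10.23 in NOD.Idd3 cells with PGN, against 12.52 and 11.72 in NOD cells with PGN, and 12.36 and 11.92 in unstimulated NOD.Idd3 cells, against 12.82 and 12.25 in unstimulated NOD cells. The strains overlapped in both conditions, and replicate 2 was below replicate 1 in all 4 groups, with differences of -1.75 to -0.44. The averaged difference was -0.70 ± 0.37, and that of its other probe set was -0.63. It was the only one of the 10 genes whose averaged difference was under 1 log2 unit.

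Over the 10 genes, the median NOD.Idd3 minus NOD difference was -1.46 with PGN, -1.58 unstimulated and -1.50 averaged, beside -0.01, -0.04 and -0.03 over all genes. All but Slc40a1 had every NOD.Idd3 array below every NOD array (9 of 10 genes), a pattern that 1.77% of all genes had. Within a condition this held for 9 of 10 with PGN, where 18.7% of all genes had it, and for 9 of 10 unstimulated, where 16.3% had it. A difference of at least 1 log2 unit was found for 9 of 10, and for 0.385% of all genes. Since the genes were chosen with this contrast in view, these shares support nothing and are printed for scale. All 20 probe sets were lower in NOD.Idd3 in both conditions, and 13 of 20 did not overlap between the strains. These belong to the same chosen genes, 4 of which have several probe sets, so the counts are likewise a description. No share over all probe sets was taken. In bulk samples such as these, fewer cells of a type and less RNA per cell cannot be told apart.

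**Figure D2:**
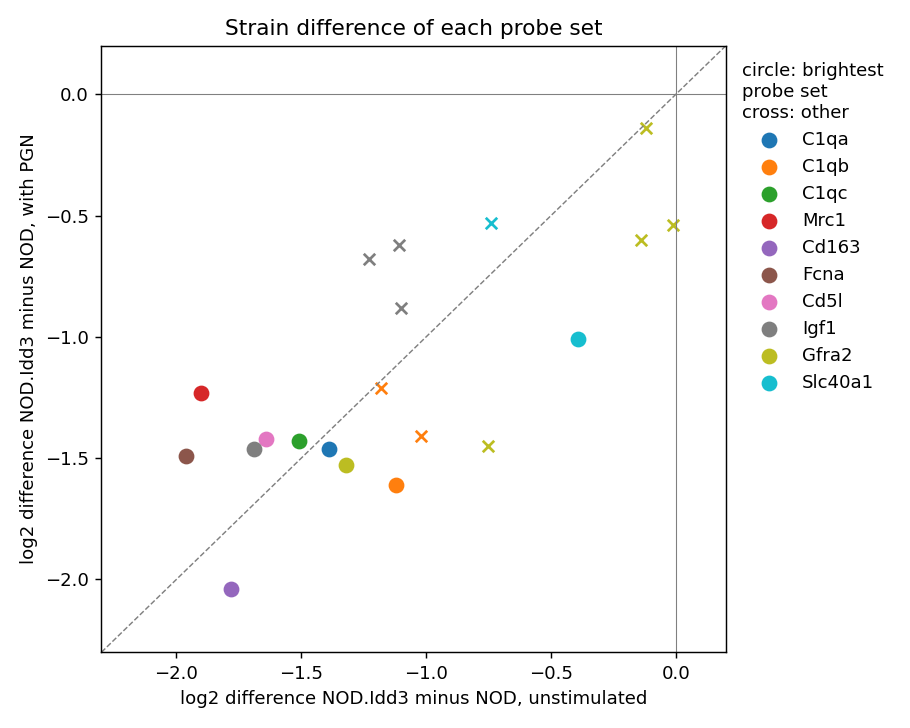
The NOD.Idd3 minus NOD log2 difference of each of the 20 probe sets, with PGN (y axis) and unstimulated (x axis), each axis from the 4 arrays of its condition. Points are coloured by gene, with circles for the brightest probe set of a gene and crosses for the others. The dashed line marks equal differences, and all points lie below 0 on both axes, with 3 crosses of Gfra2 nearest to 0.

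Replicate numbers carried part of the spread. The replicate 1 arrays share a date in their array names, so the strain difference was also taken between arrays of the same number. All 40 such differences (10 genes, 2 conditions, 2 replicate numbers) were below 0. For every gene but Slc40a1 this sign was already fixed by the separation of the strains, so the count supports nothing. The medians of these differences were -1.25 with PGN and -1.27 unstimulated within replicate 1, and -1.71 with PGN and -1.80 unstimulated within replicate 2. Cd163 differed most between the numbers, with -1.35 and -1.08 within replicate 1 (PGN and unstimulated) and -2.72 and -2.48 within replicate 2. Mrc1 had -0.80 and -1.86 within replicate 1 and -1.65 and -1.94 within replicate 2, so its PGN values were the closer to 0 in both. In NOD cells C1qa, C1qc, Cd163, Fcna, Cd5l and Igf1 had replicate 2 at least 0.5 log2 units above replicate 1 in both conditions (6 of 10, and 4.61% of all genes). In NOD.Idd3 cells 0 of 10 did so, and 1.37% of all genes. The limit of 0.5 was chosen after the values were seen. Both NOD replicate 2 arrays, and the unstimulated NOD.Idd3 replicate 1 array, carry the suffix RR1 in their names, whose meaning is not stated, and with it as a term the median strain difference was -1.41.

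**Figure D3:**
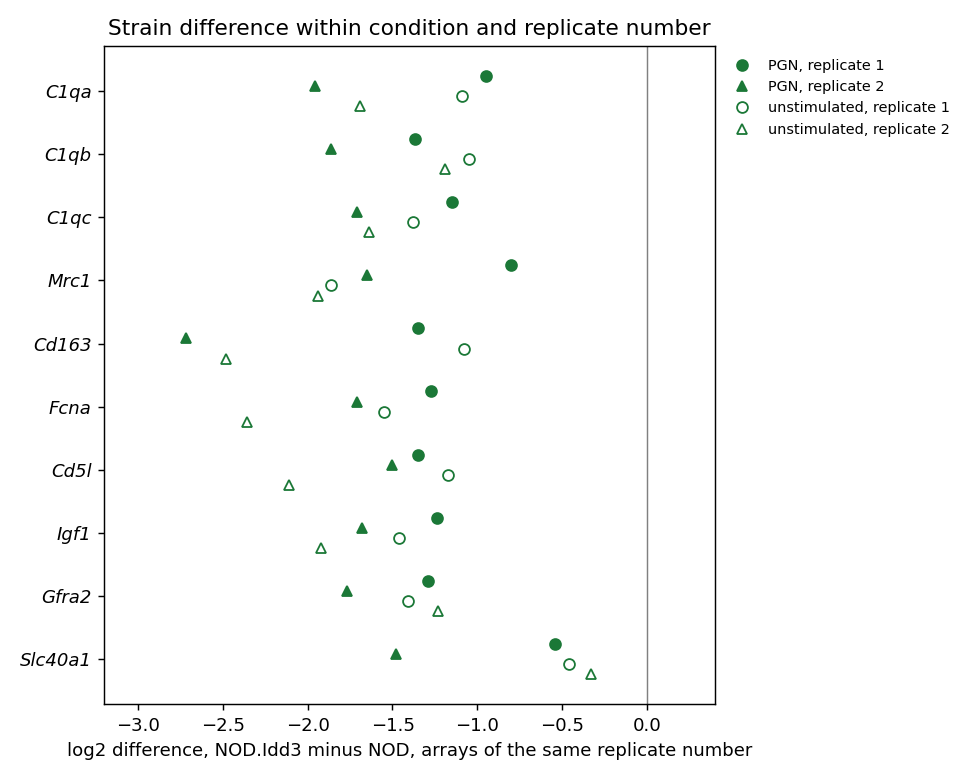
The log2 difference between the NOD.Idd3 and the NOD array of the same replicate number (x axis) for each gene (y axis), with filled symbols for PGN, open symbols for unstimulated, circles for replicate 1 and triangles for replicate 2. All 40 points lie below 0, and the replicate 2 points of Cd163, at -2.72 and -2.48, are farthest from it. For every gene but Slc40a1 the sign follows from the separation of the strains.

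Markers of other cell types were read beside these differences, in lists chosen with earlier results known. Shares of all genes are printed for scale. B cell markers moved the same way: the summed linear intensity of 11 measured markers was 1140 and 1980 in NOD.Idd3 cells with PGN, against 2370 and 5220 in NOD cells with PGN. Unstimulated, the sum was 1100 and 1840 in NOD.Idd3 cells, against 2480 and 6180 in NOD cells. The strains did not overlap, and replicate 2 was the higher array in all 4 groups. The median difference of the 11 markers was -1.31, and 5 of them (Ms4a1, Blk, Cd22, Cr2 and Spib) did not overlap between the strains, beside 1.77% of all genes. Cr2 was near background on NOD.Idd3 arrays, at 4.39 to 4.82. With the replicate block 6 of the 11 were called lower in NOD.Idd3, of 25 genes called lower in all (0.137%). Ms4a1, the CD20 gene, had 6.61 and 7.33 in NOD.Idd3 cells with PGN, against 8.18 and 8.92 in NOD cells with PGN, and 6.36 and 7.40 in unstimulated NOD.Idd3 cells, against 8.18 and 9.28 in unstimulated NOD cells. In NOD cells 8 of 11 B cell markers had replicate 2 at least 0.5 above replicate 1 in both conditions, and 6 of 11 did in NOD.Idd3 cells. Erythroid markers had a median of -0.62, with Alas2 (near background in NOD.Idd3, at 3.86 to 4.73) and Slc4a1 not overlapping (2 of 6), and platelet markers -0.48, with Itga2b and Treml1 (2 of 7). The part of these cells, and of the Gapdh 3′ minus 5′ difference, in the lower level of the 10 genes was not tested.

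General macrophage markers were read in the same way, and 11 of 14 were lower in NOD.Idd3 averaged over conditions, beside 55.4% of all genes. The summed intensity of 14 macrophage markers was 48300 to 54300 on NOD.Idd3 arrays and 52100 to 54100 on NOD arrays, and their median difference was -0.09. Adgre1, the F4/80 gene, had 12.39 to 12.78 on NOD.Idd3 arrays and 12.54 to 13.01 on NOD arrays, with a difference of -0.24 ± 0.16. Csf1r, the receptor for macrophage colony-stimulating factor, differed by -0.05 ± 0.14 and the lysosomal gene Cd68 by -0.13 ± 0.13, both at levels of 13.22 or more on every array. Spic, a transcription factor of iron-recycling red pulp macrophages, differed by -0.03 ± 0.14, the median of 5 red pulp macrophage markers that were all below 0, with Vcam1 at -0.87 ± 0.26 and Epor at -0.51 ± 0.14. Epor was near background, at 3.92 to 4.47 on NOD.Idd3 arrays and 4.41 to 4.9 on NOD arrays. Of the 14 markers, Mertk (-1.13 ± 0.19) and Timd4 (-0.73 ± 0.19), receptors for dying cells, had every NOD.Idd3 array below every NOD array. In the other direction stood Vsig4 (0.44 ± 0.17) and Maf (0.4 ± 0.2), with overlap, and Fcgr1 (0.54 ± 0.21), with every NOD.Idd3 array above. These orders were found for 1.77% and 1.08% of all genes. Peritoneal macrophage markers had a median difference of -0.12, with Prg4 at -1.01 ± 0.25. The medians were -0.14 for dendritic cell, 0.08 for monocyte, 0.05 for neutrophil, 0.02 for T cell, -0.02 for NK cell, -0.01 for plasma cell, -0.09 for stromal and endothelial, -0.16 for mast cell and -0.62 for eosinophil markers. No limma call was made for the averaged strain contrast on any gene (0 of 18193, with 1175 at an unadjusted p under 0.05, and 27 called with the replicate block), and a difference between these markers and the 10 genes was not tested.

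The other genes of the same pathways were described in the same way, again in lists chosen with earlier results known. For scale, 1.77% of all genes were lower without overlap and 1.08% were higher. Of 13 further complement components, C6 (-1.33 ± 0.20) and C2 (-0.72 ± 0.16) were lower in NOD.Idd3 without overlap, and the list's median was -0.12. C6 belongs to the membrane attack complex and C2 to the classical pathway convertase. Of 17 complement regulators and receptors, Cr2 (-1.07 ± 0.26, near background in NOD.Idd3) and C1qbp (-0.42 ± 0.18) did so (median -0.08). The efferocytosis list, 16 genes for the uptake of dying cells, held Mertk, Axl (-1.04 ± 0.20), Gas6 (-0.44 ± 0.14) and Timd4 as lower without overlap and Dock1 (0.80 ± 0.18) as higher (median -0.02). Axl had 8.16 and 8.14 in NOD.Idd3 cells with PGN, against 8.71 and 9.29 in NOD cells with PGN, and 8.06 and 7.84 in unstimulated NOD.Idd3 cells, against 8.89 and 9.49 in unstimulated NOD cells. Stab2, an endothelial scavenger receptor, differed by -1.18 ± 0.20, the only gene of 19 scavenger and lectin receptors without overlap. All 20 iron and haem genes (median -0.01) and all 19 IGF and GDNF family genes (median -0.12), lists that stand around Slc40a1, Igf1 and Gfra2, overlapped between the strains. Among 19 transcription factor and growth factor receptor genes, Nr1h3 (-0.33 ± 0.16), which encodes the sterol sensor LXR alpha, was the only one without overlap (median -0.05).

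The genes nearest to the C1q profile over the 8 arrays were found by the root mean square difference between log2 profiles, each centred on its own mean. C1qa, C1qb and C1qc were 0.094, 0.155 and 0.112 from their common profile, and a gene with no change at all would be 0.743 from it. Outside the 10 genes, Hbb-b2 (0.208), Stab2 (0.211), Pla2g2d (0.222), Fabp1 (0.224), C6 (0.225), Bank1 (0.244), Axl (0.258) and Paqr9 (0.260) were nearest. Hbb-b2 is a beta globin gene and Bank1 a B cell signalling gene. Within the set Igf1 (0.227) and Gfra2 (0.231) were as near, then Cd5l (0.284), Fcna (0.297), Cd163 (0.370) and Mrc1 (0.432), while Slc40a1 (0.812) was farther than a flat profile. All these profiles come from the same 8 arrays and share their replicate and strain differences.

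The response to PGN was the comparison that the choice of genes did not use, although the test shares its estimate of spread with the strain contrast. No member passed: 0 of 10 genes were called for the PGN effect over both strains (limma adjusted p under 0.05), where 11.3% of all genes were, 4.86% higher and 6.4% lower. In NOD.Idd3 cells 0 of 10 were called and 3.14% of all genes, and in NOD cells 0 of 10 and 3.94%. At an unadjusted p under 0.05 there was 1 of 10 over both strains and 1 of 10 in NOD.Idd3, Mrc1 in each case, and 0 of 10 in NOD, where 25% of all genes passed over both strains, 15.4% in NOD.Idd3 and 19.2% in NOD. With the replicate block 0 of 10 were called in each, beside 16.9% of all genes over both strains, 6.63% in NOD.Idd3 and 8.72% in NOD. Over both strains the changes ran from -0.73 to 0.52 with a median of -0.07, beside 0.05 over all genes. For 9 of 10 genes the 95% interval of the change lay within 1 log2 unit of 0.

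The C1q chains had values close to 0. The log2 difference (PGN minus unstimulated) over both strains was -0.09 for C1qa (95% interval -0.62 to 0.44), -0.11 for C1qb (-0.45 to 0.23) and -0.01 for C1qc (-0.52 to 0.50). Fcna had 0.16 (-0.44 to 0.76), Cd163 0.19 (-0.46 to 0.83), Cd5l -0.11 (-0.82 to 0.59), Igf1 -0.05 (-0.68 to 0.59) and Gfra2 -0.33 (-0.69 to 0.03). Their adjusted p-values in limma lay between 0.242 and 0.986.

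Mrc1 came nearest to a call. Both NOD.Idd3 arrays with PGN (8.43 and 7.84) were above both unstimulated NOD.Idd3 arrays (7.33 and 7.23). The difference was 0.86 ± 0.24 (limma adjusted p = 0.112, or 0.0709 when replicate number was a block). In NOD cells it was 0.18 ± 0.24 (adjusted p = 0.74). Over both strains it was 0.52 ± 0.17 (adjusted p = 0.0936, and from 0.0567 to 0.247 over the alternatives), with a higher value in all 4 pairs of arrays of 1 strain and replicate number. Slc40a1 had -0.73 ± 0.37 (adjusted p = 0.27, or 0.057 when replicate number was a block) and was lower in all 4 pairs. Within NOD.Idd3 the difference was -0.38 between the replicate 1 arrays and -1.69 between the replicate 2 arrays. Without replicate 1 of PGN-treated NOD.Idd3 cells, which leaves 10.23 as that group's only value, Slc40a1 had -1.17 ± 0.27 and was called (adjusted p = 0.0382). Without replicate 2 of that group it had -0.29 ± 0.27 (adjusted p = 0.625). In both fits the remaining array is assumed to vary like the other groups.

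**Figure D4:**
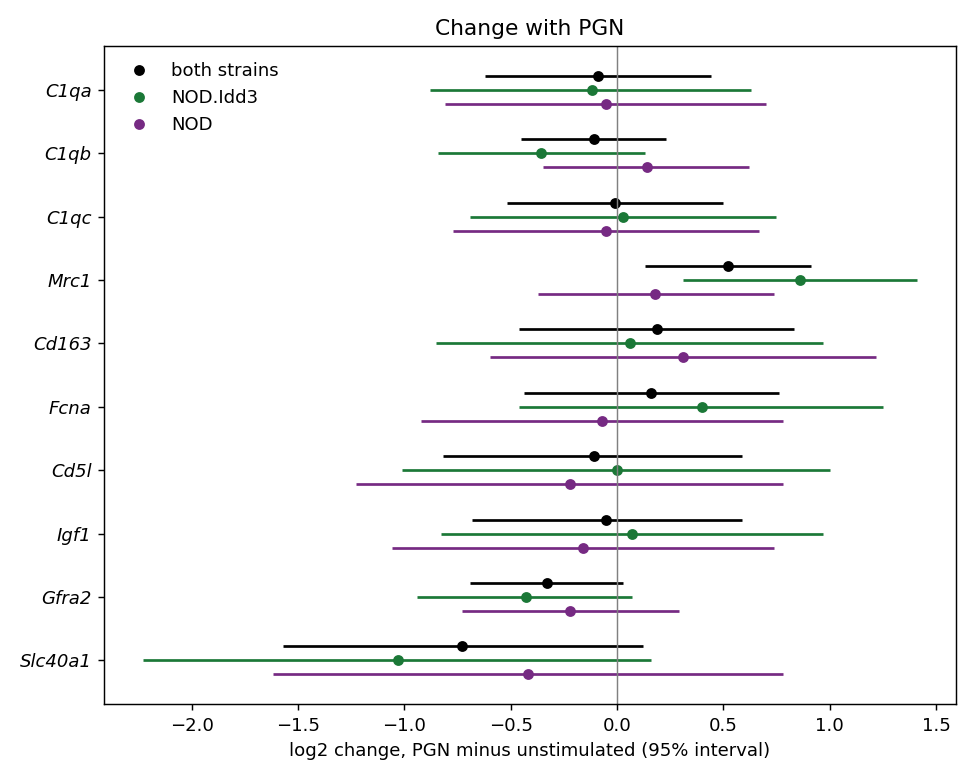
The log2 change with PGN (x axis, PGN minus unstimulated) of each gene (y axis), with points for the limma estimate over both strains (8 arrays), in NOD.Idd3 and in NOD (4 arrays each) and lines for its 95% interval. The lines of all genes cross 0 except those of Mrc1 over both strains and in NOD.Idd3, and no gene passed after adjustment.

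The strain difference was not shown to depend on PGN. The difference in response (NOD.Idd3 minus NOD) was called for 0 of 10 genes and for 0% of all genes, with 314 of 18193 at an unadjusted p under 0.05 and 0 called with the replicate block. Since no gene at all was called, the count says nothing particular about these 10. This contrast is also the strain difference with PGN minus that unstimulated, and the strain difference was in view when the genes were chosen. The difference in response ran from -0.62 ± 0.75 for Slc40a1 to 0.67 ± 0.34 for Mrc1, and C1qb had -0.49 ± 0.30. The 95% interval lay within 1 log2 unit of 0 for 1 of 10 genes, Gfra2 (-0.93 to 0.51), so for the others a difference in response of 2-fold was within the interval.

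Other genes of the pathways were read in the same PGN contrast over both strains, in lists chosen with earlier results known. For scale, 4.86% of all genes rose and 6.4% fell, or 7.21% and 9.73% with the replicate block, so a list with a single call stands near that share. Of 13 complement components 2 rose and none fell (median 0.20): Cfb, factor B of the alternative pathway, by 1.56 ± 0.30 and Hc, which encodes C5, by 1.28 ± 0.18 (limma adjusted p = 0.0115 and 0.0028). Cfb had 10.81 and 11.98 in NOD.Idd3 cells with PGN, against 9.65 and 10.04 in unstimulated NOD.Idd3 cells, and 10.19 and 11.14 in NOD cells with PGN, against 9.07 and 9.14 in unstimulated NOD cells. Hc was dim, with 5.52 and 5.62 in NOD.Idd3 cells with PGN, against 3.75 and 4.35 in unstimulated NOD.Idd3 cells. In NOD cells it had 5.0 and 5.33 with PGN, against 4.09 and 4.16 unstimulated. The 25th percentiles of the arrays were 4.28 to 4.57, so its unstimulated values were near background. Of 17 complement regulators and receptors 1 fell, Vsig4, a macrophage receptor for C3 fragments, by 0.67 ± 0.17 (median -0.22), and 3 fell with replicate number as a block.

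Iron and haem genes had 4 rises and 1 fall among 20 (median 0.13). Hamp, which encodes hepcidin, the peptide that binds ferroportin and sends it for degradation, rose by 4.12 ± 0.30 (adjusted p = 0.000172 in limma). It had 8.61 and 9.21 in NOD.Idd3 cells with PGN, against 4.42 and 4.61 in unstimulated NOD.Idd3 cells, and 8.25 and 9.53 in NOD cells with PGN, against 5.35 and 4.73 in unstimulated NOD cells. The iron importer gene Slc11a2 rose by 2.63 ± 0.19, the ferroxidase gene Cp by 1.57 ± 0.36 and the transferrin receptor gene Tfrc by 1.00 ± 0.19, while Ncoa4, which directs ferritin breakdown, fell by 0.79 ± 0.16.

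Scavenger and lectin receptors had 1 rise and 4 falls among 19 (median -0.03). The log2 changes were -1.94 ± 0.20 for Clec10a, -1.79 ± 0.30 for Colec12, -1.14 ± 0.27 for Stab1, -1.12 ± 0.17 for Scarb2 and 0.64 ± 0.16 for Cxcl16. With the block 2 rose and 6 fell. Clec10a and Stab1, a galactose lectin and a scavenger receptor, are commonly grouped with Mrc1 and Cd163 as genes of alternatively activated macrophages. Among transcription factors and growth factor receptors 3 rose and 2 fell (median 0.12), with Runx1 at 1.58 ± 0.14, Bhlhe40 at 0.68 ± 0.15, Tfec at 0.65 ± 0.17, Maf at -0.86 ± 0.20 and Cebpa at -0.60 ± 0.15, and with the block 6 rose and 2 fell. Igfbp4, an IGF binding protein gene, rose by 0.90 ± 0.20, the only call among 19 IGF and GDNF family genes (median 0.33), and the lipid exporter gene Abca1 rose by 1.10 ± 0.20, the only one among 16 efferocytosis genes (median 0.03), or 1 of 2 with the block. Macrophage markers had 0 rises and 3 falls among 14 (Maf, Stab1 and Vsig4, median 0.05).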

How the data were processed

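RNA of CD11b+ cells was measured on 8 arrays, 4 groups of 2. The deposited table holds 1 intensity per probe set and array. The submitters' processing notes name RMA, and the authors' values are on a linear scale (3.97 to 42906), so log2 was taken here. Its version and chip definition are not given in the sources used. Values were not normalized further.

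Probe sets were paired with genes by the platform annotation, leaving out 64 control probe sets, 9160 with no symbol and 932 with several. Of 34945 with 1 symbol, 34741 matched RefSeq (GRCm38.p6). The brightest probe set represented each of 18193 genes. Differences were tested as contrasts of group means with limma 3.58.1 in R 4.3.3, with 4 residual and 4.69 prior degrees of freedom and Benjamini-Hochberg adjustment over all genes (threshold 0.05). The procedure was tested on simulated data. The number of arrays limits the precision.

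The members and lists were chosen with earlier results of these data known. Named genes were the 10 members, the 8 nearest profiles, and up to 2 genes per list by PGN p-value and 2 by strain difference. Other list genes named (those called, or without overlap) were chosen with their values seen.

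Replicate numbers may pair arrays: replicate 1 arrays share a date in their names, and the replicate difference correlated across genes between groups at 0.17 to 0.42 (6 pairs of groups). A replicate block was an alternative, with a variance trend, a filter at the 40th percentile, the mean of all probe sets, no _x_at or _s_at probe sets, quantile normalization, array weights, a term for the suffix RR1 in array names, and leaving out each array.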

Additional observations from a re-analysis of the deposited data

How the results depend on the processing

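With the replicate block the counts of members called stayed at 0 for the PGN effect over both strains, in NOD.Idd3, in NOD and for the difference in response, and the median strain difference of the members was -1.50. Of the 16 alternatives, 1 changed a count: without replicate 1 of PGN-treated NOD.Idd3 cells, 1 gene (Slc40a1) was called for the PGN effect over both strains, so that count ranged from 0 to 1 over the left-out arrays. The median strain difference ranged from -1.65 to -1.32 over the 8 left-out arrays. The averaged strain difference kept its sign for every member under all 16 alternatives, from -2.17 to -1.65 for Cd163 and from -1.14 to -0.26 for Slc40a1. The members were chosen with this contrast in view, and leaving out an array could not change the sign of those without overlap. The averaged strain difference moved by more than the spread between replicates for Gfra2 with the mean of all probe sets (-0.66) and without _x_at or _s_at probe sets (-0.37), and for C1qb without those (-1.20). With 2 arrays a group, a change of 1.55 in NOD.Idd3 (Cfb, adjusted p = 0.0971 in limma) was not called within a single strain, and Gfra2 in NOD.Idd3 cells lay near background.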
